A study of Mus musculus with 24 samples.

Results

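The lungs of mice that carried 4T1 mammary tumors were compared between a high-fat diet and a control diet. The comparison set 3 arrays from high-fat fed, 4T1 cell-injected mice against 3 arrays from control-diet fed, 4T1 cell-injected mice, and it kept each probe whose signal stood above the negative control beads (detection p under 0.05) on 3 or more of these 6 arrays. That left 20174 of the 45281 probes on the array, which represented 11243 of the 19053 genes named on the array, and 18115 of the kept probes were detected on all 6 arrays. Another 60 probes were kept only through the high-fat group and 21 only through the control-diet group, so their presence depended on the group in which they were bright. At the edge of this rule, 659 probes were detected on exactly 3 arrays and had a median signal of 207, while 793 probes were detected on exactly 2 arrays, had a median signal of 202 and were left out.

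All animals were female BALB/c mice. They received the high-fat or the control diet for 16 weeks, were then given 4T1 cells in the mammary fat pad or a sham injection, stayed on the same diet, and were killed 14 days later, at 22 weeks of age by the labels. Total RNA of whole lung and liver was hybridised to 24 Illumina bead arrays, of which 12 held lung RNA, with 3 arrays in each of the groups 4T1 high-fat, 4T1 control-diet, sham high-fat and sham control-diet. The series title describes the mice as resistant to obesity, and its design text asks how the diet differs within each injection, which is the question addressed here. The labels do not say that the 3 arrays of a group came from separate mice, so a p-value measures the spread between arrays, which may be technical, and 3 arrays in a group limit the precision. The 4T1 line is an established BALB/c mammary carcinoma line that spreads from the fat pad to the lung, and the lung tissue here holds any tumor cells that had reached it.

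The 4T1 tumor is known for releasing factors that expand granulocyte production and bring neutrophils and their precursors into the lung. In the lung, matrix proteins such as fibronectin and tenascin C and enzymes that cut or crosslink matrix are known parts of the surroundings in which disseminated tumor cells grow. A high-fat diet supplies fatty acids from outside, and in lipid-making tissues it is known to lower the genes of fatty acid synthesis. Alveolar type 2 cells are the lipid-making cells of the lung, because surfactant is mostly phospholipid.

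The label of the tissue was first set against its markers. Sftpc, Sftpa1 and Sftpb of surfactant, Ager of type 1 cells, Scgb1a1 of club cells, Cldn18, Nkx2-1 and the endothelial Cdh5 were detected on all 6 arrays, and the alveolar macrophage receptor Marco was detected on 0 of 3 high-fat arrays and 1 of 3 control-diet arrays. The share of probes detected was 42.97% to 44.82% on the 6 4T1 lung arrays and 50.96% to 52.38% on the 6 sham lung arrays. The first principal component of the 6 4T1 arrays held 34.1% of the variance, with scores of -2.07, 6.61 and 17.45 on the high-fat arrays against -8.29, -6.81 and -6.89 on the control-diet arrays. High-fat array 3 lay farthest out on that axis, and control-diet array 2 lay farthest out on the second, at -13.18 with 23.3% of the variance. These 2 arrays decided several of the values below. Counts and medians of several lists are therefore also given without 1 of them, while most values of single genes are not. Lung tissue is a mixture, and in it fewer cells of a type and less RNA per cell cannot be told apart.

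No gene passed the test. With limma's moderated test on the log2 bead signals and Benjamini-Hochberg adjustment over all 20174 probes, 0 probes (0%) had an adjusted p under 0.05, and the smallest adjusted p was 0.0706. At an unadjusted p under 0.05, 2516 probes (12.5%) differed, 1442 of them higher on high-fat arrays (7.15%) and 1074 lower (5.32%). Scaling the arrays by their medians in place of quantile normalization moved this split to 1598 higher and 531 lower. Counted by gene, 785 genes were higher (6.98%) and 632 lower (5.62%) at that threshold, and the median log2 difference over all 11243 genes was 0.00. Of these genes, 5825 had a difference above 0 (51.8%) and 5418 below 0. The 3 high-fat arrays lay wholly above the 3 control-diet arrays for 945 genes (8.41%) and wholly below them for 700 genes (6.23%). These shares are the background against which the gene groups below are read, and the descriptions that follow give levels and differences of genes that were not called.

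The leading gene was Cd207, which encodes langerin, a lectin of Langerhans cells and of airway dendritic cells. Its log2 signal was 8.05, 8.13 and 8.09 on high-fat arrays and 8.56, 8.72 and 8.50 on control-diet arrays. The groups did not overlap, and the difference was -0.51 ± 0.07 (SE), a level 1.42 times as high on the control diet (limma, adjusted p = 0.0706). A dimmer probe of the same gene differed by -0.40. Next was Il1r2, the decoy receptor of interleukin 1, with 10.54, 10.62 and 10.44 on high-fat arrays against 10.97, 10.95 and 10.88 on control-diet arrays. All high-fat values lay below all control-diet values, by -0.40 ± 0.06 (SE) on the log2 scale (limma, adjusted p = 0.0706). Both genes did pass when only 1 probe per gene was tested (limma, adjusted p = 0.0466 for each) and when all 45281 probes were tested without the detection filter (limma, adjusted p = 0.0478 for each). Il1r2 also passed with the mean of the secreted liver protein genes as a covariate (limma, adjusted p = 0.0363). It passed without high-fat array 2 as well (limma, adjusted p = 0.0480). Other alternatives moved the smallest adjusted p either way. With median scaling it was 0.0617 and with detection on all 6 4T1 arrays 0.0598 (limma). The smallest adjusted p over all probes was 0.333 with only the 6 4T1 arrays and 0.264 with array weights (limma). It was 0.219 without high-fat array 3 and 0.262 with the mean of the heart muscle genes as a covariate (limma).

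The other 18 genes among the 20 smallest p-values had adjusted p-values of 0.150 to 0.151 in limma, so they were not told apart in rank. Adamts4, a protease that cuts aggrecan and versican, showed the largest log2 difference among these 20 genes. It stood at 8.23, 8.36 and 8.76 on high-fat arrays and at 7.78, 7.96 and 7.55 on control-diet arrays, where it was detected on 2 of 3. The difference was 0.69 ± 0.12 (SE), 1.61 times as high on the high-fat diet, with no overlap. Tnc, the matrix glycoprotein tenascin C, measured 9.27, 9.62 and 9.79 on high-fat arrays against 8.84, 9.17 and 8.88 on control-diet arrays, a difference of 0.60 ± 0.11 (SE). Its lowest high-fat value lay only just above the highest control-diet value.

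Further matrix genes stood among these 20. Spon2, a secreted matrix protein of the spondin family, read 11.92, 11.61 and 11.97 on high-fat arrays and 11.36, 11.43 and 11.46 on control-diet arrays, a difference of 0.41 ± 0.08 (SE). Olfml3, a secreted olfactomedin-like protein, was at 11.98, 12.05 and 12.04 on high-fat arrays against 11.51, 11.79 and 11.69 on control-diet arrays, 0.36 ± 0.07 (SE). Col3a1, the chain of type III collagen, was at 8.39, 8.47 and 8.40 on high-fat arrays against 8.06, 8.15 and 8.04 on control-diet arrays, 0.34 ± 0.06 (SE). In each of these 3 genes every high-fat array was above every control-diet array.

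Among the genes with roles inside the cell, Gyg, which primes glycogen, was higher by 0.35 ± 0.06 (SE), at 11.59, 11.50 and 11.52 on high-fat arrays against 11.11, 11.30 and 11.15 on control-diet arrays, while a second Gyg probe differed by 0.12. Nop56, a core protein of the box C/D particles that modify ribosomal RNA, was at 9.89, 9.86 and 10.16 on high-fat arrays against 9.60, 9.58 and 9.49 on control-diet arrays. Car9, a carbonic anhydrase known as a target of hypoxia-inducible factor, was at 8.05, 7.95 and 8.01 on high-fat arrays against 7.73, 7.79 and 7.66 on control-diet arrays, and the probe was detected on 2 of 3 control-diet arrays. The differences were 0.41 ± 0.08 (SE) for Nop56 and 0.27 ± 0.05 (SE) for Car9, and neither gene's groups overlapped. Scn3a, a neuronal sodium channel, differed by 0.31 and Ank3, ankyrin G, by 0.26, but a second probe of Ank3 differed by 0.04. Prl2c2, a proliferin, and Prss22, a trypsin-like protease of epithelia, were detected on all 3 high-fat arrays and on 0 of 3 control-diet arrays, so the array set only a bound on their control-diet level. Their measured differences were 0.54 and 0.47.

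Among the lower genes, Map3k6, a kinase upstream of stress-activated kinases, was at 9.66, 9.76 and 9.75 on high-fat arrays against 10.26, 10.29 and 10.11 on control-diet arrays, a difference of -0.50 ± 0.09 (SE). Irf8, the transcription factor needed for dendritic cells and monocytes, was at 9.46, 9.46 and 9.43 on high-fat arrays against 9.83, 9.80 and 9.72 on control-diet arrays, -0.33 ± 0.07 (SE). Pigr, which carries polymeric IgA across airway epithelium, was at 8.69, 8.59 and 8.73 on high-fat arrays against 8.94, 9.00 and 8.97 on control-diet arrays, -0.30 ± 0.06 (SE). For all 3 genes the high-fat arrays lay below the control-diet arrays without overlap. Wdr83, Septin3 and the G protein subunit gene Gng4 were lower by between -0.27 and -0.33 and complete the 20.

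**Figure D1:**
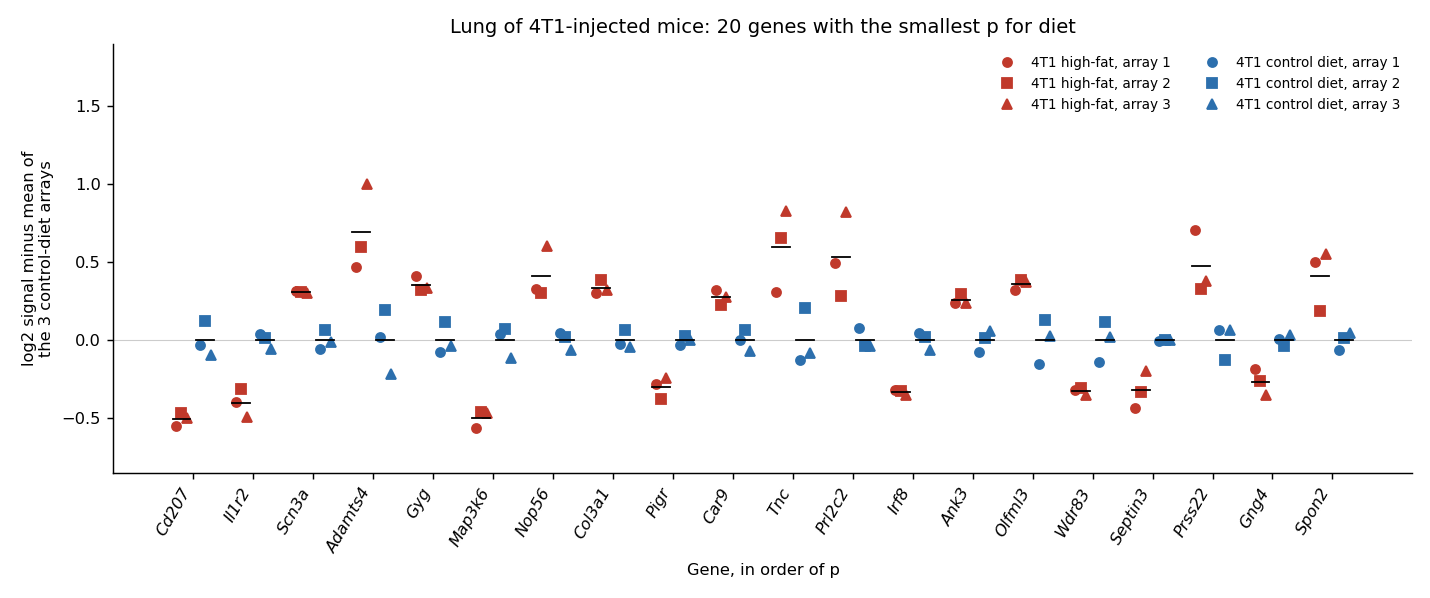
Log2 bead signal minus the mean of the 3 control-diet arrays (vertical axis) of the 20 genes with the smallest p-values on each 4T1 lung array, high-fat arrays in red left of control-diet arrays in blue, with 1 point for each array and a black bar at the group mean. The groups are apart for Cd207, Il1r2, Adamts4 and Tnc, and no gene passed an adjusted p of 0.05.

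Genes were then grouped by function into 44 lists with 1401 genes, of which 1038 were among the genes tested. The members and lists were chosen with earlier results of these data known, so their counts are given beside the background and without a test of the list. The mitotic cell cycle list had the largest share of members at an unadjusted p under 0.05, 61.4%, all of them higher on the high-fat diet. Clock genes, alveolar macrophage genes, metastatic niche matrix genes, B cell genes, and fibroblast and collagen genes followed with between 37.1% and 50.0%. Over all genes tested that share was 12.6%. No member of any list was called. Under median scaling 1598 probes were higher and 531 lower at that threshold. More lists then had a median above 0 than in the fit as reported.

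**Figure D2:**
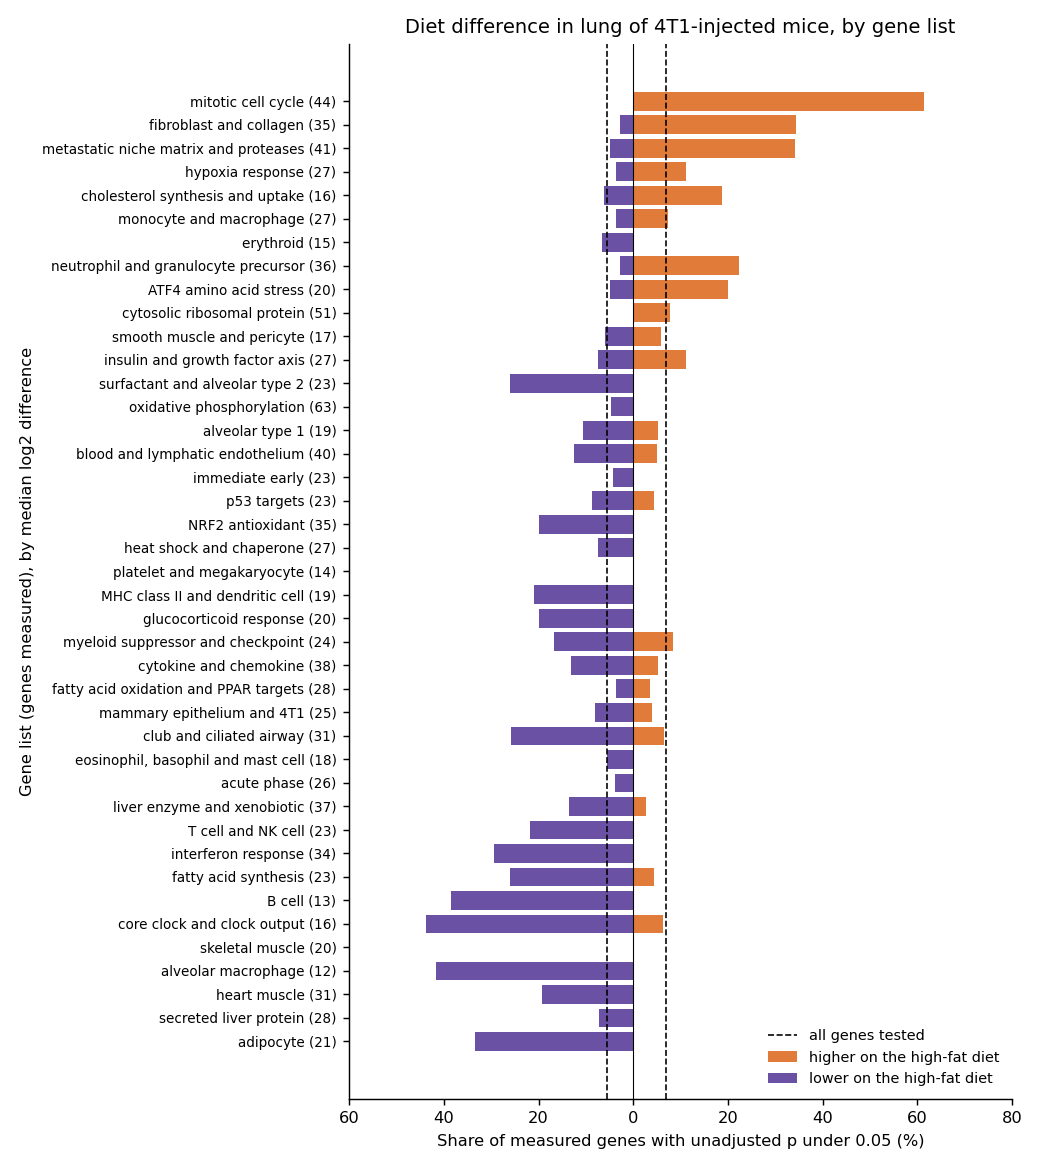
Percent of the measured members that were higher (orange, to the right) and lower (purple, to the left) on the high-fat diet at an unadjusted p under 0.05, for each gene list with 10 or more measured members, in order of the median log2 difference. Dashed lines mark the 6.98% and 5.62% of all genes tested. The mitotic list has the longest bar on the higher side with 27 of 44 members, and the clock list on the lower side with 7 of 16.

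Mitotic genes were the group most often higher. Of 44 members measured, 27 were higher and 0 lower at an unadjusted p under 0.05, against 6.98% and 5.62% of all genes, 42 were above 0, and the median difference was 0.28. The 3 high-fat arrays lay wholly above the 3 control-diet arrays for 26 members, against 8.41% of all genes. Top2a, the topoisomerase that untangles chromosomes before they separate, was at 10.21, 10.21 and 11.25 on high-fat arrays against 9.90, 9.86 and 9.68 on control-diet arrays, a difference of 0.74 ± 0.21 (SE, limma, adjusted p = 0.209). High-fat arrays 1 and 2 lay a little above the control-diet arrays and high-fat array 3 far above them. Anln, the anillin of the cleavage furrow, showed 10.48, 10.57 and 11.55 on high-fat arrays against 10.30, 10.11 and 10.09 on control-diet arrays, 0.70 ± 0.20 (SE). Cdk1, the kinase that drives entry into mitosis, showed 9.25, 9.26 and 10.05 on high-fat arrays against 9.03, 8.87 and 8.90 on control-diet arrays, 0.59 ± 0.16 (SE, limma, adjusted p = 0.192). Both followed the same order, with high-fat array 3 highest and no overlap.

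Members with other roles had like values. The mitotic kinases Aurka and Plk1 were both higher by 0.46, and Prc1 and Birc5, which act in the late spindle and in the chromosomal passenger complex, were both higher by 0.43. Cdc20, which activates the anaphase-promoting complex, was at 10.10, 10.16 and 10.55 on high-fat arrays against 9.94, 9.89 and 9.84 on control-diet arrays, 0.38 ± 0.10 (SE). The transcription factors Mybl2 and Foxm1, which drive mitotic genes, were higher by 0.38 and 0.30, Tyms, which makes thymidylate for DNA synthesis, by 0.34, and Cdt1, which licenses replication origins, by 0.28. The only members below 0 were Hmgb2 at -0.08 and Kif23 at -0.02. Dimmer probes of some of these genes differed less, by 0.29 for Top2a, by 0.15 and -0.09 for Tyms and by 0.14 at the least for Cdc20, and those of Kif23 lay above 0.

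The size of these differences rested on 1 array. High-fat array 3 was the highest of the 6 arrays for 42 of the 44 members. The mean log2 signal over the 44 members was 9.43, 9.44 and 9.93 on high-fat arrays against 9.37, 9.31 and 9.26 on control-diet arrays. Without high-fat array 3, 16 members were higher and 0 lower at an unadjusted p under 0.05 with a median of 0.12, and Top2a and Cdk1 differed by 0.40 and 0.32. The same array was also highest for Lgals1, the lectin galectin 1, at 12.74, 12.99 and 13.75 on high-fat arrays against 12.57, 12.49 and 12.62 on control-diet arrays. It was highest for Krt18, a keratin of simple epithelium, at 10.57, 10.53 and 10.98 on high-fat arrays against 10.42, 10.40 and 10.43 on control-diet arrays. Of the whole list of 25 mammary epithelial and 4T1 genes measured, 1 was higher and 2 lower at an unadjusted p under 0.05. The shares of all genes were 6.98% and 5.62%. The list's median was -0.08, and Epcam was not detected on any of the 6 arrays. The list's mean log2 signal was 10.40, 10.33 and 10.25 on high-fat arrays against 10.39, 10.43 and 10.40 on control-diet arrays. High-fat array 3 was the lowest array for 11 of these 25 members and the highest for 3. Without high-fat array 1 that list had 7 lower members. Krt14, which had the lowest difference of that list at -0.53, is also in the squamous set described below. The part of tumor cells in the mitotic values was not tested.

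Chosen after their values were seen, 3 further genes had large differences of the same shape. Sox9, a transcription factor of progenitor cells, was at 9.11, 9.05 and 10.32 on high-fat arrays against 8.78, 8.57 and 8.46 on control-diet arrays, 0.89 ± 0.24 (SE). Tns4, an adhesion protein of epithelial and carcinoma cells, was at 9.86, 9.80 and 10.70 on high-fat arrays against 9.45, 9.16 and 9.36 on control-diet arrays, 0.79 ± 0.17 (SE). Mtap, an enzyme of methionine salvage, was at 10.24, 10.26 and 11.33 on high-fat arrays against 9.94, 9.91 and 9.80 on control-diet arrays, 0.73 ± 0.20 (SE). In all 3, every high-fat array was above every control-diet array and high-fat array 3 was the highest.

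**Figure D3:**
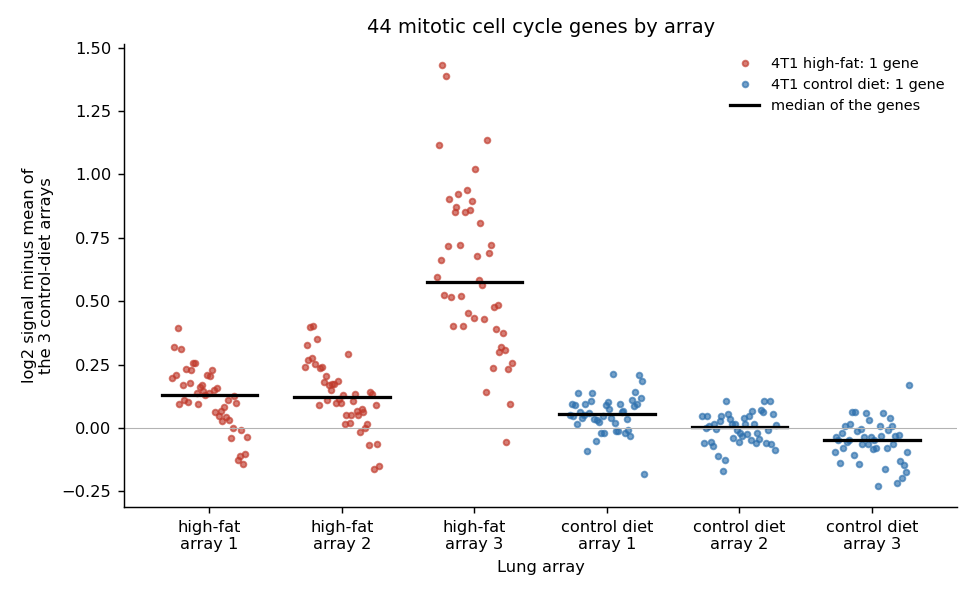
Log2 bead signal minus the gene's mean over the 3 control-diet arrays (vertical axis) for the 44 mitotic cell cycle genes on each 4T1 lung array, high-fat arrays left of control-diet arrays, with 1 point for each gene and a bar at the median. High-fat array 3 is the highest array for 42 of 44 genes.

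Many mitotic genes share a promoter element, the cell cycle genes homology region, to which the DREAM and MuvB complexes bind. It was searched for as TTTGAA or TTCGAA on both strands in the 250 bases upstream of each start in RefSeq promoters (GRCm38.p6). It was present in 12 of the 38 mitotic members with a promoter (31.6%), in 14.9% of the 9057 tested genes with a promoter and in 17.1% of all 32851 promoters. The upstream sequences of 3 members that carry the element are shown, picked by their small p-values for diet. Matches are in capitals, and the last base is next to the start. The match nearest to the start in Top2a reads on the opposite strand. In Cdk1 the matches begin 71 and 15 bases before the start, in Cdc20 18 bases before it, and in Top2a 179, 140, 120 and 23 bases before it.
Cdk1, chr10:69352913-69353032, minus strand: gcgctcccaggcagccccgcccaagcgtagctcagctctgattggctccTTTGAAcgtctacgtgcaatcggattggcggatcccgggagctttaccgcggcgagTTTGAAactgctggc
Cdc20, chr4:118437344-118437463, minus strand: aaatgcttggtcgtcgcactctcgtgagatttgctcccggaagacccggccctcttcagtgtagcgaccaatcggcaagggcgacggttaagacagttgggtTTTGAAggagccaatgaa
Top2a, chr11:99024190-99024378, minus strand: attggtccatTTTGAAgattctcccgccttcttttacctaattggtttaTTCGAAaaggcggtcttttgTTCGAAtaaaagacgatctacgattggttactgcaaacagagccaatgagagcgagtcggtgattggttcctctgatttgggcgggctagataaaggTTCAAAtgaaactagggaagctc
A match describes the letters only and does not show a bound site.

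Matrix and protease genes came next. Of 41 metastatic niche matrix and protease genes measured, 14 were higher and 2 lower at an unadjusted p under 0.05. Among all genes 6.98% were higher and 5.62% lower. The list's median was 0.07, and 11 members were wholly apart upwards, against 8.41% of all genes. Beside Adamts4 and Tnc, Timp1, an inhibitor of metalloproteinases, stood at 10.26, 10.12 and 10.80 on high-fat arrays against 9.94, 9.75 and 9.52 on control-diet arrays, 0.65 ± 0.16 (SE, limma, adjusted p = 0.163). Adamts1, a relative of Adamts4 that cuts versican, stood at 9.60, 9.93 and 9.87 on high-fat arrays against 9.32, 9.53 and 9.40 on control-diet arrays, 0.39 ± 0.08 (SE). Neither gene's groups overlapped, and 2 dimmer Adamts1 probes differed by 0.26 and 0.10. Fn1, fibronectin, stood at 12.34, 12.54 and 12.67 on high-fat arrays against 11.97, 12.31 and 11.97 on control-diet arrays, 0.43 ± 0.11 (SE). Its groups were apart by a narrow margin, and a second, dimmer Fn1 probe differed by 0.06.

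The proteases Mmp3, stromelysin, and Mmp13, collagenase 3, were higher by 0.34 and 0.29, and the plasminogen activator Plau by 0.26. Mmp3 was at 9.32, 9.39 and 9.70 on high-fat arrays against 9.06, 9.25 and 9.07 on control-diet arrays, without overlap. Has2, which makes hyaluronan, was higher by 0.34 with overlapping groups. Loxl1, which crosslinks elastin, was at 13.01, 13.12 and 13.13 on high-fat arrays against 12.65, 12.83 and 12.91 on control-diet arrays, 0.29 ± 0.07 (SE). Here too no control-diet value reached the lowest high-fat value. The 2 members that were lower were the inhibitor Timp4 at -0.17 and the lymphatic growth factor Vegfc at -0.16. Without high-fat array 3 the counts were 11 higher and 1 lower.

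Among 35 fibroblast and collagen genes measured, 12 were higher and 1 lower at an unadjusted p under 0.05 with a median of 0.09. The shares of all genes were 6.98% and 5.62%. Only 3 members were wholly apart upwards, a share near the 8.41% of all genes. Timp1, described above, is a member of this list too and has its largest difference. Col1a1, the main chain of type I collagen, read 11.24, 11.45 and 11.46 on high-fat arrays against 10.87, 11.40 and 10.95 on control-diet arrays, 0.31 ± 0.12 (SE), and control-diet array 2 lay inside the high-fat range. Col15a1, a collagen of basement membranes, read 9.63, 9.90 and 9.88 on high-fat arrays against 9.28, 9.83 and 9.34 on control-diet arrays with the same overlap. The proteoglycan Dcn, decorin, went the other way, at 13.31, 13.27 and 13.25 on high-fat arrays against 13.67, 13.47 and 13.41 on control-diet arrays, -0.24 ± 0.08 (SE), without overlap. The count of higher members was 4 without control-diet array 1, 7 without control-diet array 3, and 6 without high-fat array 2 or high-fat array 3.

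Differences of neutrophil genes were small, and more members were higher than lower at the unadjusted threshold. Of 36 measured, 8 were higher and 1 lower at an unadjusted p under 0.05, against 6.98% and 5.62% of all genes. The median was 0.01. Among the higher were genes of the primary granules that are made in bone marrow precursors. Prtn3, proteinase 3, read 11.55, 11.54 and 11.33 on high-fat arrays against 11.16, 11.06 and 11.33 on control-diet arrays, 0.29 ± 0.08 (SE), with high-fat array 3 level with control-diet array 3. The myeloperoxidase gene Mpo read 12.89, 12.95 and 12.86 on high-fat arrays against 12.78, 12.65 and 12.73 on control-diet arrays, 0.18 ± 0.07 (SE), with no overlap. A dimmer Mpo probe differed by 0.30. Elane, neutrophil elastase, read 10.16, 10.19 and 10.06 on high-fat arrays against 9.98, 9.89 and 10.03 on control-diet arrays, 0.17 ± 0.06 (SE). Its groups were apart by a small gap.

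Ctsg, cathepsin G, was higher by 0.22, Fcnb, ficolin B, by 0.25, and Cebpe, the transcription factor of late granulocyte precursors, by 0.24. Wfdc17 was lower by -0.17. With background correction by neqc the list gave 2 higher and 0 lower, and the higher members numbered 4 without high-fat array 1 or 2 and 3 without control-diet array 2. Signals of the most abundant granulocyte genes were close to the top of the scale, at 16.02 to 16.05 for S100a8 and 16.02 to 16.05 for Ltf over the 6 arrays, so a difference in them could not be measured well. S100a9 was at 15.47, 15.41 and 15.33 on high-fat arrays against 15.55, 15.51 and 15.54 on control-diet arrays, -0.13 ± 0.06 (SE).

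Genes of lymphocytes and antigen-presenting cells were more often lower than higher. Of 13 B cell genes, 0 were higher and 5 lower at an unadjusted p under 0.05, 12 were below 0, and the median was -0.15. Among all genes 6.98% were higher and 5.62% lower at that threshold. Cd22, an inhibitory receptor of B cells, was at 8.70, 8.59 and 8.74 on high-fat arrays against 8.88, 8.98 and 8.75 on control-diet arrays, -0.20 ± 0.07 (SE), with a very small gap between the groups and a dimmer probe at -0.09. Mzb1, a chaperone of antibody-secreting cells, was lower by -0.36 and Vpreb3, of the pre-B cell receptor family, by -0.31. The list gave 1 lower member without control-diet array 2 and 3 without high-fat array 2.

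Of 23 T cell and NK cell genes, 0 were higher and 5 lower with a median of -0.12, and of 19 MHC class II and dendritic cell genes 0 were higher and 4 lower with a median of -0.05. Those 4 included Irf8 and Cd83, a surface protein of mature dendritic cells that was lower by -0.29 ± 0.06 (SE). Alveolar macrophage genes gave 0 higher and 5 lower of 12, with a median of -0.21. For these 3 lists the share of all genes lower is again 5.62%. The count of lower members was 2 without control-diet array 1 for the T and NK cell list, 8 without high-fat array 3 for the dendritic cell list, and 3 without high-fat array 3 or control-diet array 2 for the alveolar macrophage list. Ccl8, a chemokine for monocytes, stood at 8.96, 8.70 and 8.86 on high-fat arrays against 9.84, 9.90 and 9.06 on control-diet arrays, -0.76 ± 0.18 (SE, limma, adjusted p = 0.163). Control-diet array 3 was close to the high-fat arrays, though above them. When control-diet array 3 was left out, Ccl8 was called, at -1.03.

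Interferon response genes leaned the same way. Of 34 measured, 0 were higher and 10 lower at an unadjusted p under 0.05, against 5.62% of all genes lower. Below 0 were 32, and the median was -0.13. Wholly apart downwards were 9, against 6.23% of all genes. Oasl1, which restrains translation of Irf7, was at 9.52, 9.50 and 9.50 on high-fat arrays against 9.91, 9.83 and 9.63 on control-diet arrays, -0.29 ± 0.07 (SE). Rtp4, an interferon-induced chaperone, was at 8.64, 8.59 and 8.67 on high-fat arrays against 8.69, 8.97 and 8.94 on control-diet arrays, -0.23 ± 0.08 (SE). Both genes' groups were apart, Rtp4's by a narrow gap. Irf7, the factor that amplifies type I interferon, was lower by -0.28, and the guanylate-binding protein Gbp5 by -0.32, detected on 1 of 3 high-fat and 3 of 3 control-diet arrays. Oas3, a sensor of double-stranded RNA, was at 8.60, 8.61 and 8.59 on high-fat arrays against 8.85, 8.70 and 8.71 on control-diet arrays, -0.15 ± 0.06 (SE). Over the fits that left out 1 array, 5 to 11 members were lower, with 5 or 6 without high-fat array 1 or 2 or control-diet array 1 or 2.

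The interferon-stimulated response element was searched for as GAAANNGAAA on both strands in the same 250 bases. It was present in 14 of the 27 interferon members with a RefSeq promoter (51.9%), in 3.33% of the tested genes with a promoter and in 2.98% of all promoters. Of the members that carry it, Oas3 and Gbp5 were also picked by their small p-values for diet. Their upstream sequences are shown, with the element once on each strand and the match in capitals. It begins 75 bases before the start in Oas3 and 165 bases before it in Gbp5.
Oas3, chr5:120777660-120777779, minus strand: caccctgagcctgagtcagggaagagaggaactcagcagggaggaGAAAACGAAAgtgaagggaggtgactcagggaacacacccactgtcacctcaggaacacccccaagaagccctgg
Gbp5, chr3:142496759-142496933, plus strand: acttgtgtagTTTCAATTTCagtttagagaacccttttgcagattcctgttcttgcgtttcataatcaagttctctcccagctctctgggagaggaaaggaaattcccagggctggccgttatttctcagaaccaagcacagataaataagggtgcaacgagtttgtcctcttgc
In Gbp5 the element reads on the opposite strand.

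Clock genes were more often lower than higher. Of 16 measured, 1 was higher and 7 lower at an unadjusted p under 0.05, against 6.98% and 5.62% of all genes. The median was -0.16. Without high-fat array 1, high-fat array 3 or control-diet array 1, 4 were lower. The repressors Per2, Per3 and Cry2 were lower at that threshold, and the repressor Per1 differed by 0.00 ± 0.13 (SE). Per2 was at 11.70, 12.25 and 11.62 on high-fat arrays against 12.32, 12.34 and 12.01 on control-diet arrays, -0.37 ± 0.13 (SE), with high-fat array 2 inside the control-diet range. Cry2 was at 9.19, 9.28 and 9.16 on high-fat arrays against 9.42, 9.40 and 9.44 on control-diet arrays, -0.21 ± 0.06 (SE), without overlap. Per3 was lower by -0.22. Nr1d2, the nuclear receptor REV-ERB beta, was lower by -0.28, its relative Rora by -0.21, and the output genes Usp2 and Tef by -0.31 and -0.33, though a second Tef probe differed by -0.05.

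Clock, the partner of Arntl in the activating arm, was the 1 higher member, at 11.48, 11.64 and 11.62 on high-fat arrays against 11.43, 11.43 and 11.31 on control-diet arrays, 0.19 ± 0.06 (SE). Arntl itself did not differ beyond the spread, at 8.53, 8.43 and 8.40 on high-fat arrays against 8.40, 8.50 and 8.46 on control-diet arrays. The labels give no hour of death, so the sampling time of the groups was not tested. Of 20 glucocorticoid response genes 0 were higher and 4 lower at an unadjusted p under 0.05, against 5.62% of all genes lower. Zbtb16, a glucocorticoid-induced transcription factor, was lower by -0.56 and Klf9 by -0.25.

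Lipid-making genes were more often lower than higher. Of 23 fatty acid synthesis genes, 1 was higher and 6 lower at an unadjusted p under 0.05 with a median of -0.14. The shares of all genes were 6.98% and 5.62%. Scd1, the desaturase that makes oleate, stood at 13.21, 13.41 and 13.38 on high-fat arrays against 13.95, 14.30 and 13.71 on control-diet arrays, -0.65 ± 0.14 (SE, limma, adjusted p = 0.151). The high-fat arrays were all below the control-diet arrays. Thrsp, a lipogenic protein also called Spot 14, stood at 8.39, 8.57 and 8.35 on high-fat arrays against 9.30, 10.38 and 8.87 on control-diet arrays, -1.08 ± 0.32 (SE, limma, adjusted p = 0.216). Elovl6, an elongase, stood at 9.23, 9.15 and 9.49 on high-fat arrays against 10.16, 10.74 and 9.59 on control-diet arrays, -0.87 ± 0.28 (SE, limma, adjusted p = 0.250). Control-diet array 2 was the highest array for all 3 genes, and control-diet array 3 stood nearest to the high-fat arrays.

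Fasn, fatty acid synthase itself, was lower by -0.19 with overlapping groups, and Elovl1, which extends very long chains, was the 1 higher member at 0.16. Without control-diet array 2 the list gave 0 higher and 3 lower, with a median of -0.07, without high-fat array 3 it gave 3 lower, and without control-diet array 3 it gave 11 lower. Among 23 surfactant and alveolar type 2 genes, 0 were higher and 6 lower, against 5.62% of all genes lower. Without high-fat array 3 or control-diet array 3 the lower members numbered 3. The median was 0.00. This list holds Scd1 too, as its lowest member. Sftpd, surfactant protein D, was at 15.23, 15.50 and 15.25 on high-fat arrays against 15.62, 15.65 and 15.61 on control-diet arrays, -0.30 ± 0.06 (SE, limma, adjusted p = 0.151). Sftpa1, surfactant protein A, was at 13.72, 13.70 and 13.69 on high-fat arrays against 13.92, 13.76 and 13.84 on control-diet arrays, -0.14 ± 0.06 (SE). Both genes were lower on every high-fat array, while Sftpc and Sftpb were each within their overlapping ranges of 14.81 to 15.00 and 13.71 to 13.91.

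Adipocyte genes, whose list also holds Scd1, Thrsp, Fasn, Acaca, Agpat2, Dgat2 and Elovl3 of fatty acid synthesis, were also more often lower. Of 21 measured, 0 were higher and 7 lower at an unadjusted p under 0.05, against 5.62% of all genes lower. Below 0 were 20, and the median was -0.29. Adipoq, the fat cell hormone adiponectin, read 9.52, 9.88 and 10.02 on high-fat arrays against 10.50, 10.53 and 9.65 on control-diet arrays, and Cidec, a lipid droplet protein, read 8.87, 9.04 and 8.91 on high-fat arrays against 9.59, 9.72 and 9.07 on control-diet arrays. Adipoq overlapped between the groups and Cidec was apart by a small gap. Plin1 and Fabp4 were not detected on any of the 6 arrays. Summed over the 21 genes, the bead signal was 39719 to 44024 on high-fat arrays against 46626 to 66608 on control-diet arrays, while the mean log2 signal was 9.73 to 9.90 on high-fat arrays against 9.88 to 10.51 on control-diet arrays, with overlap. Control-diet array 2 was the highest array for 19 of the 21 members, and without it the median was -0.13 with 5 lower members. Without control-diet array 3 the median was -0.44 with 15 lower members. The part of adipose tissue in the values of Scd1, Thrsp and Elovl6 was not tested.

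Heart genes were highest on the same array. Of 31 heart muscle genes measured, 0 were higher and 6 lower with a median of -0.25, against 5.62% of all genes lower. Control-diet array 2 was the highest array for 30 of the 31. Nppa, the atrial natriuretic peptide, stood at 12.22, 12.66 and 11.86 on high-fat arrays against 13.03, 14.49 and 12.30 on control-diet arrays, with overlap. Myl2, the ventricular myosin light chain, had the largest difference among all genes tested, -1.79 ± 0.67 (SE), but at 7.43, 7.42 and 7.90 on high-fat arrays against 9.67, 11.17 and 7.27 on control-diet arrays the 2 groups overlapped, and it was detected on 1 of 3 high-fat and 2 of 3 control-diet arrays. The summed bead signal of the list was 70814 to 92752 on high-fat arrays against 82330 to 135958 on control-diet arrays. Without control-diet array 2 the list gave 1 higher and 0 lower, with a median of -0.08. It gave 12 lower without high-fat array 1, 13 without control-diet array 3, and 1 without high-fat array 2 or 3.

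Transcripts of secreted liver proteins varied by array within both groups. The mean log2 signal over 28 such genes was 9.10, 9.55 and 10.03 on high-fat arrays against 9.62, 10.44 and 9.58 on control-diet arrays. At an unadjusted p under 0.05, 0 were higher and 2 lower (7.14%), near the 5.62% of all genes lower. The median difference over these genes was -0.27. Control-diet array 2 was the highest array for 25 of them and high-fat array 1 the lowest for 25, and the median was -0.02 without control-diet array 2 and -0.06 without high-fat array 1. Without high-fat array 3 it was -0.54 with 12 lower members. The defining liver genes Alb, Fgb and Serpina1a were not detected on any of the 6 arrays, while Apoa1 and Ttr were detected on all. Mup3, a major urinary protein, stood at 8.55, 8.65 and 9.25 on high-fat arrays against 9.75, 10.67 and 9.55 on control-diet arrays, -1.17 ± 0.28 (SE, limma, adjusted p = 0.163), without overlap.

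A set of 15 keratinocyte and squamous epithelial genes, picked after their values were seen, split the high-fat group. Its mean log2 signal was 10.76, 9.99 and 9.70 on high-fat arrays against 10.68, 10.92 and 10.81 on control-diet arrays. High-fat array 1 sat with the control-diet arrays, and high-fat arrays 2 and 3 sat below them. Krt13, a keratin of lining epithelium such as that of the oesophagus and upper airway, showed the same shape at 13.27, 12.30 and 11.93 on high-fat arrays against 13.06, 13.52 and 13.21 on control-diet arrays. Trp63, the basal cell transcription factor, differed by -0.04. On sham arrays the set also varied within groups, at 10.93, 10.20 and 10.15 on high-fat arrays against 10.16, 10.99 and 10.44 on control-diet arrays.

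**Figure D4:**
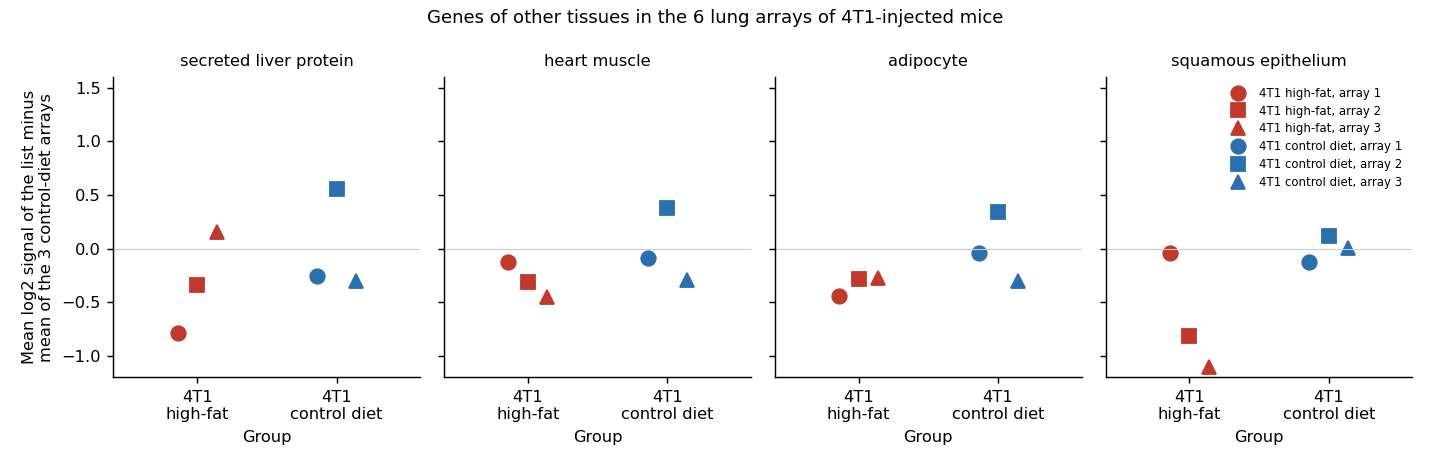
Mean log2 bead signal of 3 gene lists and the squamous set, minus the mean of the 3 control-diet arrays (vertical axis), on each 4T1 lung array, with 1 point for each array and high-fat arrays left of control-diet arrays. Control-diet array 2 is the highest for the heart, adipocyte and secreted liver protein lists, and high-fat arrays 2 and 3 are the lowest for the squamous set.

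The diet difference was next read in the lungs of sham mice, on 6 other arrays and the same 20174 probes. There limma called 539 probes (2.67%), 314 higher (1.56%) and 225 lower (1.12%) on the high-fat diet, which gave 191 genes higher and 138 lower, 2.93% of all genes. Both comparisons share the estimate of each gene's spread but no array. A small shared spread favours a low p in both. The shares of all genes are therefore not a strict background for the counts by p-value that follow. The genes called lower in sham lung were also lower in 4T1 lung more often than all genes were. Of those 138, 115 were below 0 on the 4T1 arrays, against 5418 of all 11243 genes. At an unadjusted p under 0.05, 46 (33.3%) were lower there, against 5.62% of all genes. Their median difference was -0.09 in 4T1 lung and -0.35 in sham lung.

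Of the 191 genes called higher in sham lung, 92 (48.2%) were above 0 in 4T1 lung, against 51.8% of all genes. At an unadjusted p under 0.05, 26 (13.6%) were higher against 6.98% of all genes, and 11 (5.76%) were lower against 5.62%. The median of the 191 was -0.01 in 4T1 lung and 0.34 in sham lung. Across all 11243 genes Pearson's r between the 2 diet differences was 0.18 and Spearman's rho 0.08, as a description across genes, which are not independent replicates.

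Several leading genes had the same direction under both injections. Cd207 differed by -0.51 in 4T1 lung and -0.42 in sham lung (limma, adjusted p = 0.00833 in sham), Map3k6 by -0.50 and -0.81, Hif3a, an inhibitory member of the hypoxia-inducible factors, by -0.41 and -0.67, Gyg by 0.35 and 0.65, and Col3a1 by 0.34 and 0.52. Hif3a has a second probe that differed by -0.05 in 4T1 lung. A second Gyg probe differed by 0.12 in 4T1 lung and 0.74 in sham lung, and for it the difference between the diet effects was called (limma, adjusted p = 0.028). Per2 differed by -0.37 in 4T1 lung and -1.23 in sham lung, Cyp2a5, a cytochrome P450 of airway and liver, by -0.46 and -1.22, and Mup3 by -1.17 and -1.33. For 2 other Cyp2a5 probes, at -0.39 and -0.35 in 4T1 lung and -1.50 and -1.45 in sham lung, the difference between the diet effects was called (limma, adjusted p = 0.0118 and 0.0155). The clock, glucocorticoid response and interferon response lists had medians of -0.16, -0.06 and -0.13 in 4T1 lung. In sham lung their medians were lower, at -0.38, -0.32 and -0.17. There 11 of 16, 8 of 20 and 2 of 34 members were called lower, against 138 of all 11243 genes. Of the clock members, 2 were called higher there. Mitotic genes did not share this pattern, with a median of -0.03 in sham lung and 2 members higher at an unadjusted p under 0.05, against 9.21% of all genes higher there. The test of the difference between the diet effects reached an unadjusted p under 0.05 for 17 of the 44 mitotic members, against 13.6% of all genes, and called 0.

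The test of the difference between the diet effects called 45 probes (0.223%), 8 with a higher (0.0397%) and 37 with a lower (0.183%) diet difference in 4T1 lung, which gave 25 genes (0.222%). The clock gene Arntl had the smallest p, with a diet difference of 0.00 in 4T1 lung and 1.14 in sham lung, where it was at 9.29, 9.48 and 9.30 on high-fat arrays against 8.22, 8.24 and 8.19 on control-diet arrays. The difference of differences was -1.14 ± 0.08 (SE, limma, adjusted p = 6.2e-05). Spon2 was higher under both injections, by 0.41 in 4T1 lung and 1.71 in sham lung, and the difference between them was called at -1.30 ± 0.12 (SE, limma, adjusted p = 0.00032). S100a9 differed by -0.13 in 4T1 lung and 0.94 in sham lung and S100a8 by 0.00 and 0.74, but in 4T1 lung both sat near the top of the scale.

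Il1r2, Irf8 and Pigr, which were lower in 4T1 lung, were not lower in sham lung. Il1r2 was dim in sham lung, with means of 7.92 on high-fat and 7.80 on control-diet arrays, against 10.53 and 10.93 in 4T1 lung. A fall in so dim a signal could not be measured well. Il1r2 differed by -0.40 in 4T1 lung and 0.12 in sham lung, Irf8 by -0.33 and 0.26, and Pigr by -0.30 and 0.31, and the difference was called for each (limma, adjusted p = 0.020, 0.020 and 0.0092). B cell genes showed the same contrast. Their median diet difference was -0.15 in 4T1 lung and 0.37 in sham lung, where 8 of 13 were called higher and 1 lower, and the difference of differences was called for 4 members and reached an unadjusted p under 0.05 for 12, against the same 13.6% of all genes. Cd79b, a chain of the B cell receptor, differed by -0.16 in 4T1 lung and 0.62 in sham lung, and Cd22 by -0.20 and 0.34.

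**Figure D5:**
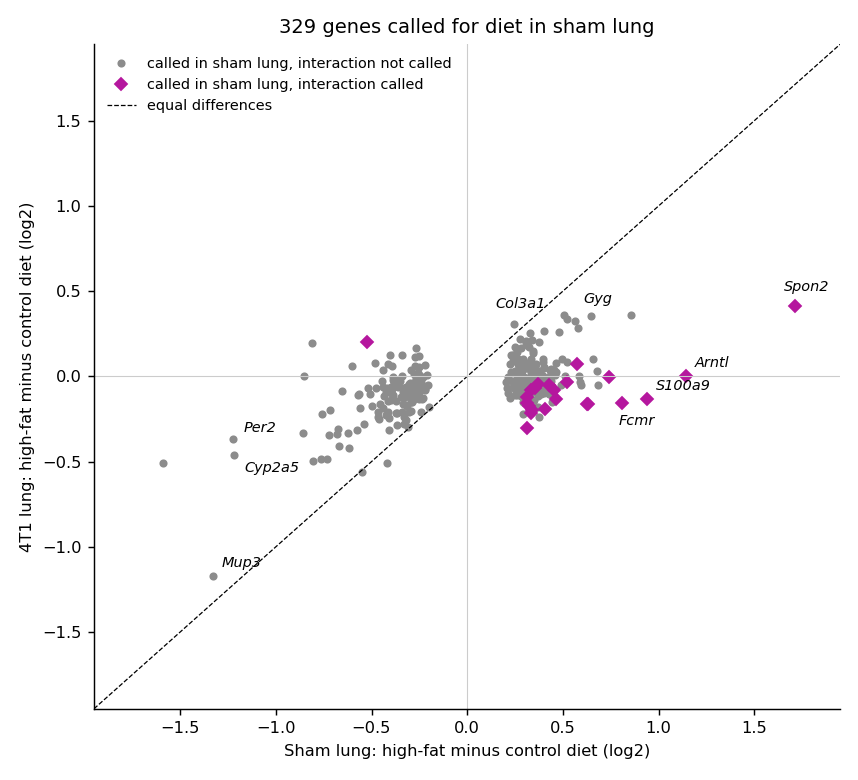
Log2 diet difference (high-fat minus control diet) in 4T1 lung (vertical axis) against sham lung (horizontal axis) for the 329 genes called in sham lung, with diamonds where the difference between the diet effects was called and a dashed line of equal differences. Those called lower in sham lung lie mostly below 0 in 4T1 lung (115 of 138), and those called higher lie on both sides of 0 (92 of 191 above). Of all genes tested, 51.8% are above 0 in 4T1 lung.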

How the data were processed

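Lung RNA was measured on 12 Illumina bead arrays. The deposited bead signals are intensities without background subtraction, which the submitters' processing notes trace to GenomeStudio 2009.2, and each has a deposited detection p-value against negative control beads, per the file headers. The deposited log2 values were within 0.01 of the log2 of these signals after quantile normalization within lung for 100% of probe and array pairs, and they were the values tested. The sources used here do not give scanner settings or a genome build. Signals near the maximum are compressed, and without background correction differences of dim probes are understated.

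Probes were named through the platform annotation, updated by Entrez ID or accession. Of 45281 probes 34885 had 1 symbol, 18 several and 10378 none. A gene is represented by its brightest kept probe over the 6 4T1 lung arrays. The fit used limma 3.58.1 in R 4.3.3 (lmFit and eBayes, 4 group means, 12 arrays, 8 residual degrees of freedom) with Benjamini-Hochberg adjustment over 20174 probes and calls at an adjusted p under 0.05. Errors are the fit's SE. The procedure was tested on simulated data with independent noise. Its simulated shifts were larger than the differences of the 20 leading genes, so smaller differences were not covered. With fewer than 10 genes called, the named genes are the 20 smallest p-values and up to 4 members of each list by size of difference. Members and lists were chosen with earlier results of these data known. Genes named outside this rule were chosen after their values were seen. Promoters come from RefSeq (GRCm38.p6). The alternatives tried were neqc, median scaling, other detection filters, only the 6 arrays, a replicate block, array weights, an intensity trend, 1 probe per gene, tissue covariates and leaving out each of the 6 4T1 lung arrays.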

Additional observations from a re-analysis of the deposited data

Results flagged for a closer look

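The diet difference in 4T1 lung differed from that in sham lung for 45 probes by limma's test of the difference itself (adjusted p under 0.05). Among the genes described above, the difference of differences, 4T1 minus sham on the log2 scale, was -1.30 for Spon2, -0.62 for Pigr, -0.52 for Il1r2, -0.59 for Irf8 and -0.54 for Cd22. Pigr, Irf8, Il1r2 and Cd22 were below 0 in 4T1 lung and above 0 in sham lung, while Spon2 was above 0 in both. The Il1r2 signal was dim in sham lung, at means of 7.92 and 7.80, so a fall there could not be measured well. The 2 diet comparisons share no array, and the number of such probes was 22 to 105 when 1 4T1 array was left out. Groups of 3 arrays were too small for the test of single outlying arrays.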

How the results depend on the processing

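For the 4T1 diet difference, calls were 0 in the fit as reported and 0 under median scaling, with only the 6 4T1 arrays (1724 probes at an unadjusted p under 0.05), with detection on all 6 or on 3 of the 12 lung arrays, with array weights, with an intensity trend and with the heart covariate, which was added after seeing the data. There was 1 call under neqc, a dimmer Adamts1 probe at 0.66 against 0.26 in the fit as reported. Calls numbered 3 without a detection filter and 2 with 1 probe per gene. With the mean of the secreted liver protein genes as a covariate there were 8, among them Adamts4, Tnc, Fn1, Mmp3 and Il1r2. Leaving out 1 4T1 array gave 0 to 4 calls, 4 without high-fat array 2 and 2 without control-diet array 3, for causes that were not tested. Deviations of same-numbered 4T1 arrays correlated at 0.03, -0.05 and -0.18, and those of sham arrays at -0.07, 0.01 and 0.14. With groups of 3 arrays these values cannot decide whether the numbers 1 to 3 pair the arrays. With the replicate block there were 0 calls for the 4T1 diet difference, 294 against 539 for the sham diet difference and 5 against 45 for the difference of differences. The sham count was 279 under neqc and 1234 with array weights, and 486 to 627 leaving out 1 4T1 array, which enters it only through the shared spread. Sham arrays were not left out in turn. The count for the difference of differences was 16 under neqc, 29 under median scaling, 69 without a detection filter, 105 with the liver covariate and 24 with the heart covariate, and 22 to 105 leaving out 1 4T1 array. Lists with a median above 0 numbered 11, and 18 under median scaling. Of 180 named genes, 9 changed sign under some alternative. Satb1 moved to 0.015 under median scaling, Fga to 0.066 and Hpx to 0.13 with the liver covariate, and Dusp1 to -0.0013, Pdk4 to 0.098 and Tpm2 to 0.081 with the heart covariate. Over the fits that left out 1 array, the range was -0.059 to 0.019 for Satb1, -0.67 to 0.098 for Hpx, -0.36 to 0.046 for Pdk4, -0.38 to 0.014 for Tpm2, -0.087 to 0.011 for Ptcra, -0.025 to 0.36 for Ddit4 and -0.35 to 0.16 for Prg2. The number of arrays, and bead signals near the top of the scale for S100a8, Ltf and Hba-a1, limit what could be measured.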
